A study of Arabidopsis thaliana with 44 samples.

Results

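The genes described here are 8 structural genes of the flavonoid and proanthocyanidin pathway of Arabidopsis thaliana, taken out of the 21500 genes that have a probe on the Agilent microarray. They were chosen by name, as the loci of CHS (AT5G13930), CHI (AT3G55120), F3H (AT3G51240), FLS1 (AT5G08640), DFR (AT5G42800), LDOX (AT4G22880), BAN (AT1G61720) and TT12 (AT3G59030), and each locus had 1 probe. All 8 were measured on every microarray and entered every test. The study compared microarray and sequence tag platforms on the same RNA, and the 12 Agilent microarrays of its wild type tissues were used here. On 8 of them 1 RNA was labelled in both colours, with 2 microarrays each for actively growing callus, inflorescences of mixed stage with immature buds, untreated leaves of 21 days and untreated roots of 21 days. On 2 microarrays root RNA (red) was hybridised against leaf RNA (green), and on 2 more RNA of siliques collected 24 to 48 hr after fertilization (red) was hybridised against inflorescence RNA (green). The colours were not swapped between tissues. The 2 microarrays of a kind, A and B, are technical replicates of 1 RNA per tissue in the study's methods, so that every p-value given below covers the spread between microarrays and not the spread between plants.

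Flavonoids are made from phenylalanine-derived precursors. Chalcone synthase (CHS), chalcone isomerase (CHI) and flavanone 3-hydroxylase (F3H) form the trunk of the pathway and give dihydroflavonols. From there flavonol synthase (FLS1) leads to flavonols, which protect against ultraviolet light and are abundant in flowers, while dihydroflavonol reductase (DFR) and leucoanthocyanidin dioxygenase (LDOX) lead to anthocyanidins. The anthocyanidin reductase encoded by BANYULS (BAN) diverts anthocyanidins to proanthocyanidins, the condensed tannins that colour the seed coat, and TT12 is a transporter that loads their precursors into the vacuole. Mutants in most of these genes were found as transparent testa plants, whose seeds lack the brown colour.

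Signals are given as the scanner software's processed signal, which is corrected for background and scaled so that both colours of a microarray are comparable; it has no unit, and it is compared only within a probe. On the 10 microarrays other than the silique ones, 97.4 to 99.8% of the gene probes were well above background in each colour. The silique microarrays were dimmer, at 90.2 to 91.6% in green and 70.5 to 76.0% in red. The tissue labels were checked with 3 marker genes each. In root against leaf all 3 leaf markers were lower and all 3 root markers higher, and in silique against inflorescence all 3 silique and seed markers were higher, while 2 of 3 inflorescence markers were lower (AG, a floral organ identity gene, gave a log2 ratio of -0.29, adjusted p = 0.0576). No marker was fixed for callus, where the floral gene PI read 14945 to 19418. One microarray stood apart. On root microarray A the leaf gene RCA, which encodes Rubisco activase, read 62426 in green and 13334 in red, against 748 and 752 on root microarray B, and RBCS1A, a small subunit of Rubisco, read 110797 and 52594 against 6219 and 6080. Comparisons of root levels and correlations that use the single-tissue root microarrays are therefore given also without A. In all other comparisons root A stayed in the fit and entered the shared spread behind their p-values.

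In silique against inflorescence 4 of the 8 genes were higher in silique (DFR, LDOX, BAN and TT12), 1 was lower (FLS1), and CHS, CHI and F3H did not pass the test (limma, Benjamini-Hochberg adjusted p under 0.05 over 21498 probes). Across all probes 37.9% were called higher, 32.7% lower and 70.6% in either direction, so that a call by itself is common here. The 3 silique and seed markers (SHP1, STK and TT16) stood at log2 ratios of 2.30 to 3.50 and the leaf markers RCA and CAB1 at 1.51 and 2.73. All 3 tapetum and pollen markers were lower in silique, PKSA at -3.01, TKPR1 at -3.30 (microarray B alone) and MS2 with no fold given, since its silique spots were not well above background. The same holds for the root marker COBL9, lower in silique, while the other two root markers were slightly higher (0.39 and 0.75). The part of these other tissues in the pathway's ratios was not tested. In whole organs more cells of a type and more RNA per cell cannot be told apart.

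BAN, the first enzyme particular to proanthocyanidins, read 54488 in silique and 56.0 in inflorescence on microarray A, and 46447 and 32.2 on microarray B. The inflorescence spot was well above background on A only. The log2 ratio was 10.21 (SE 0.28, adjusted p = 2.37e-08), a ratio of 1186. DFR, the first step past the flavonol branch, read 32325 in silique and 44.8 in inflorescence on A, and 28768 and 26.2 on B, where again the inflorescence spot was not well above background. Its log2 ratio was 9.80 (SE 0.26, adjusted p = 1.96e-08), a ratio of 890.1. Both genes thus gave strong signals in silique and lay close to the limit of measurement in inflorescence.

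LDOX read 9355 in silique and 59.2 in inflorescence on microarray A, and 9953 and 81.0 on B. The log2 ratio was 7.12 (SE 0.17, adjusted p = 1.37e-08), a ratio of 139.3. TT12 read 5733 and 100.03 on A, and 5301 and 79.6 on B, which gave a log2 ratio of 5.95 (SE 0.29, adjusted p = 5.41e-07), a ratio of 61.8. For these 4 genes the lowest silique signal lay far above the highest inflorescence signal, and the SD of the log2 ratio over the 2 microarrays was at most 0.43.

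The direction of these 4 ratios did not depend on the background correction, but their size did. Before background subtraction the inflorescence spots of the 4 genes were only 1.62 to 2.12 times as bright as their local background, whereas the silique spots were 9.81 to 109.2 times as bright. With a correction that keeps low signals from approaching 0 (normexp with an offset of 50, then loess) the ratios were 138.6 for BAN, 86.6 for DFR, 24.6 for LDOX and 13.3 for TT12, with adjusted p of 4.56e-09 or lower. The log ratio deposited with the scans has a ceiling at a ratio of 100, which 25 gene probes reached on microarray A and 24 on B, and BAN, DFR and LDOX stood at that ceiling on both.

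**Figure D1:**
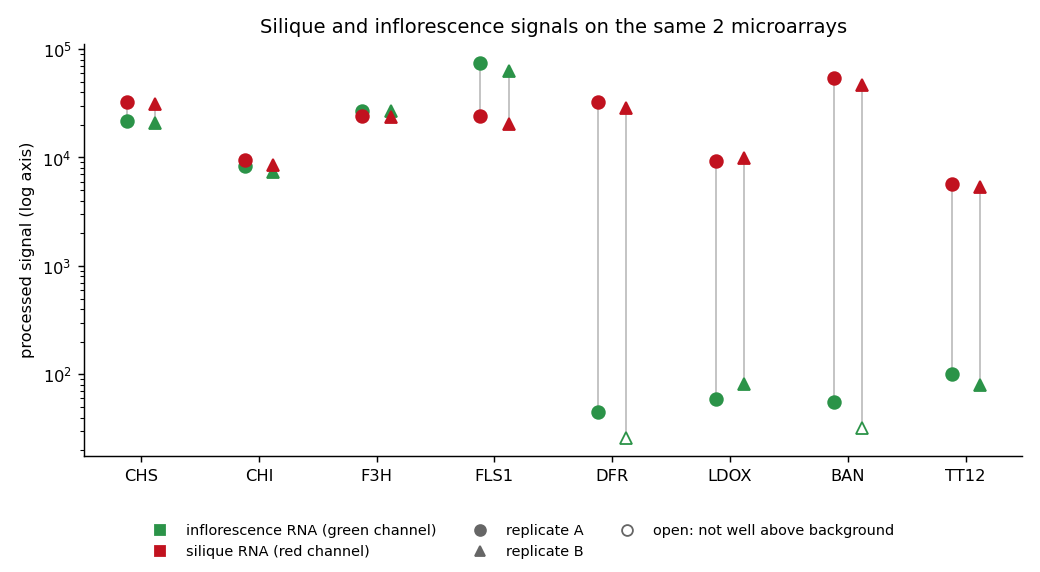
Processed signal (log axis, no unit) of the 8 genes on the 2 silique/inflorescence microarrays, with inflorescence RNA in green and silique RNA in red, circles for microarray A and triangles for B, and open symbols for spots not well above background; a grey line joins both colours of a microarray. DFR, LDOX, BAN and TT12 read 5301 or more in silique and 100.03 or less in inflorescence, whereas the 3 trunk genes differed by 1.5-fold or less and FLS1 was brighter in inflorescence.

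The trunk of the pathway was bright in both tissues. CHI read 9553 in silique and 8386 in inflorescence on A, and 8509 and 7277 on B (log2 ratio 0.21, SE 0.15, adjusted p = 0.241). F3H read 24218 and 26793 on A, and 23712 and 26895 on B (log2 ratio -0.16, SE 0.19, adjusted p = 0.465). Neither gene passed the test, although the sign of each was the same on both microarrays. FLS1, the branch to flavonols, was the exception among the early genes. It read 24076 in silique and 74723 in inflorescence on A, and 20512 and 63183 on B, and was 3.09-fold lower in silique (log2 ratio -1.63, SE 0.06, adjusted p = 1.49e-07).

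CHS, the entry enzyme, read 32450 in silique and 21710 in inflorescence on A, and 30982 and 20585 on B, a log2 ratio of 0.58 (SE 0.26, adjusted p = 0.0776). The direction of this value rests on how the dyes are treated. On the microarrays with inflorescence RNA in both colours the CHS probe was also brighter in red, with 28751 against 16579 on A and 31030 against 17935 on B, a log2 red over green of 0.79 on each. Subtracting that dye difference, an alternative chosen after the data were seen, turned the silique/inflorescence value of CHS to -0.21 (adjusted p = 0.652). The same subtraction left the calls of FLS1, DFR, LDOX, BAN and TT12 in place. For CHI, F3H and FLS1 the inflorescence self-self microarrays gave log2 red over green between -0.12 and -0.0036. The planned dye term, from the self-self microarrays of all tissues, left CHS higher in silique and not called. Its sign turned in 1 of 14 alternatives. The dye difference of the CHS probe was not constant, since in leaf and root it lay between -0.42 and -0.18.

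**Figure D2:**
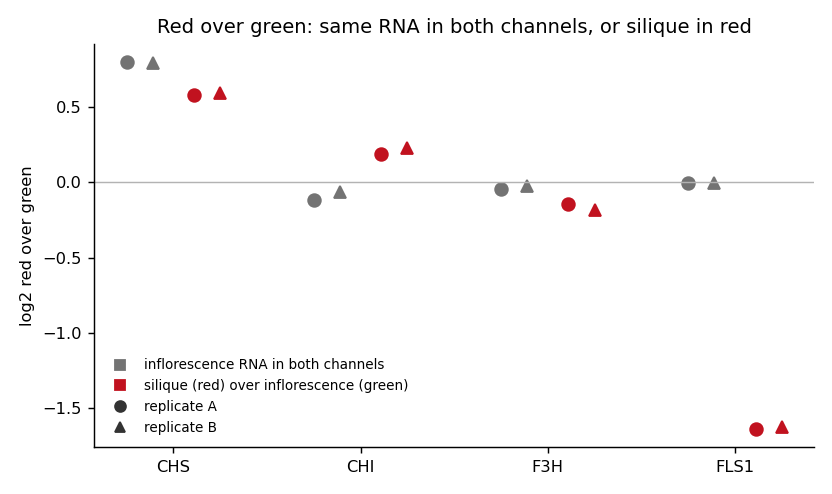
Log2 ratio of red over green signal of CHS, CHI, F3H and FLS1, in grey where both colours held inflorescence RNA and in red where silique RNA (red) was hybridised against inflorescence RNA (green); circles are microarray A and triangles B. CHS stood at 0.79 on both microarrays of a single RNA, above its 0.58 and 0.59 for silique over inflorescence, while FLS1 stood near 0 and at about -1.63.

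The other genes of the pathway were described from lists of known enzymes, transporters and regulators. Among 15 regulators with a probe 10 were higher and 3 lower in silique, with a median log2 ratio of 0.87 against 0.067 over all probes tested, of which 70.6% were called. A count of calls in these short lists is therefore only a description. TT8, a bHLH partner in the complex that activates the late genes, had the largest ratio of them. It read 5799 in silique and 135.0 in inflorescence on A, and 4985 and 140.2 on B (log2 ratio 5.29, SE 0.09, adjusted p = 4.29e-09). TT2, the MYB factor of the same complex, read 5377 and 224.4 on A, and 5787 and 227.7 on B (log2 ratio 4.63, SE 0.07, adjusted p = 7.32e-09). TTG1, its WD40 partner, is expressed in most tissues and moved slightly the other way (log2 ratio -0.34, adjusted p = 0.000512). Outside the rule for naming, and chosen after their values were seen, are TTG2, TT16 and MYBL2, at log2 ratios of 4.38, 3.50 and 3.42. TTG2 and TT16 act in the developing seed coat, and MYBL2 is a repressor of anthocyanin synthesis. The MYB factors that activate the flavonol branch split, since MYB111 and MYB12 were lower in silique (log2 ratios of -2.47 and -1.53) and MYB11 was higher (1.30).

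Of the 4 transport genes, AHA10, a proton pump of the vacuole needed for proanthocyanidin storage, had the largest ratio. It read 5775 in silique and 104.8 in inflorescence on A, and 3234 and 76.7 on B (log2 ratio 5.59, SE 0.14, adjusted p = 6.41e-08). TT19, a glutathione S-transferase that escorts pathway products, was higher as well, at a log2 ratio of 3.45, while ABCC2 was lower at -0.56 and TT9 was not called (0.12, adjusted p = 0.0919). The 3 other core enzymes were all higher in silique, among them the flavonoid 3'-hydroxylase TT7 at 0.70 and the laccase-like oxidase TT10, which browns the seed coat, at 1.75. The 9 tailoring enzymes, which add sugars, acyl or methyl groups, gave 4 calls higher and 4 lower, with a median log2 ratio of -0.067. UGT79B1, which glycosylates anthocyanins, stood at 2.47. The glycosyltransferases UGT78D2 and UGT89C1 stood at -1.26 and -2.51, and the flavonol rhamnosyltransferase UGT78D1 was not called (-0.067, adjusted p = 0.767). Among these lists 5MAT and TT1 were called higher and UGT78D3, FLS6 and CHI-like lower although their silique spots were not well above background on either microarray, so no fold is given for them.

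The ratios between root and leaf were smaller. On the root/leaf microarrays 5 of the 8 genes were lower in root and none was higher. Across 21490 probes 30.4% were called lower, 38.3% higher and 68.8% were called in either direction. The median log2 ratio of the 8 genes was -1.30, against 0.029 over all probes.

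DFR showed the widest difference of the 8. It read 27.9 in root and 527 in leaf on microarray A, and 63.3 and 633 on B, and was 13.8-fold lower in root (log2 ratio -3.78, SE 0.26, adjusted p = 3.00e-06). LDOX read 67.2 in root and 263 in leaf on A, and 77.9 and 262 on B, 3.63-fold lower (log2 ratio -1.86, SE 0.17, adjusted p = 2.09e-05). Both late genes were thus dim in root. With the normexp correction the differences were 5.16-fold for DFR and 2.16-fold for LDOX, both still called.

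Of the trunk genes CHI read 259 in root and 1225 in leaf on A, and 257 and 1054 on B, 4.41-fold lower in root (log2 ratio -2.14, SE 0.15, adjusted p = 3.32e-06). CHS read 612 and 2416 on A, and 610.4 and 2232 on B, 3.799-fold lower (log2 ratio -1.93, SE 0.26, adjusted p = 0.000229). F3H was not called, with 532 in root and 696 in leaf on A, and 434 and 623 on B (log2 ratio -0.46, SE 0.19, adjusted p = 0.0651). It passed the threshold with the normexp correction (adjusted p = 0.000777) and in a fit of these 2 microarrays alone (adjusted p = 0.0136). These were the only 2 of 14 alternatives in which F3H passed, and over all 14 its log2 ratio ran from -0.52 to -0.33. FLS1 read 1205 in root and 2054 in leaf on A, and 1243 and 2005 on B, and was 1.66-fold lower (log2 ratio -0.73, SE 0.06, adjusted p = 1.32e-05). All 4 early genes were lower in root on both microarrays. Root was always in red, and on the leaf and root self-self microarrays some of these probes were also dimmer in red. Log2 red over green there lay between -0.42 and -0.18 for CHS and between -0.21 and -0.0099 for F3H. With either dye term subtracted CHS, CHI and FLS1 stayed called, and F3H stayed lower in root and not called.

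The proanthocyanidin genes showed no called difference between root and leaf. BAN read 96.4 in root and 98.9 in leaf on A, and 57.2 and 55.04 on B, a log2 ratio of 0.0098 (SE 0.28, adjusted p = 0.978). TT12 read 124.9 and 78.2 on A but 16.1 and 23.4 on B, where both spots were not well above background, and its log2 ratio was 0.67 on A and -0.54 on B. No direction can be read for TT12 here.

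**Figure D3:**
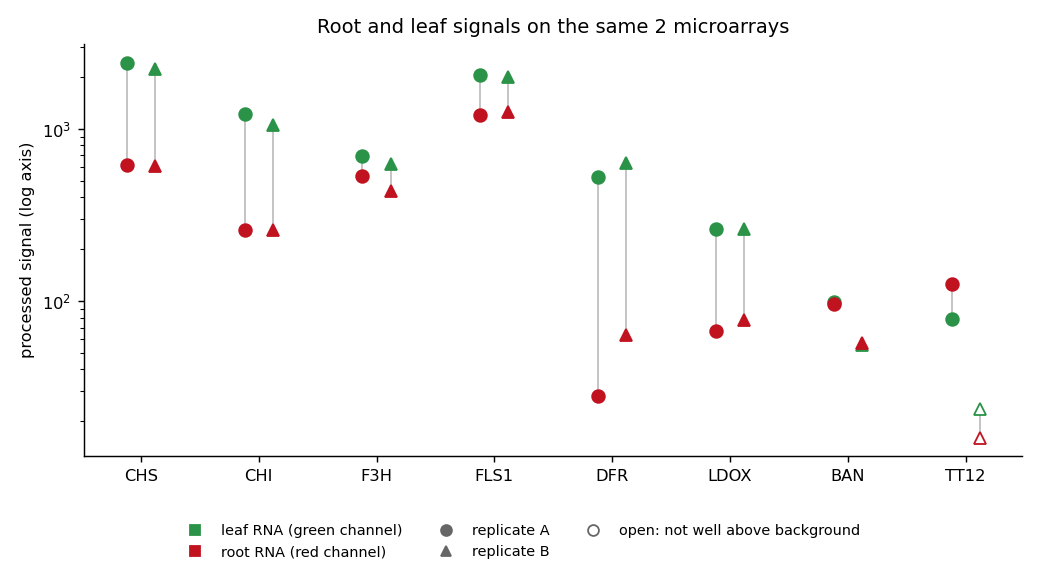
Processed signal (log axis, no unit) of the 8 genes on the 2 root/leaf microarrays, with leaf RNA in green and root RNA in red, circles for microarray A, triangles for B and open symbols for spots not well above background. CHS, CHI, FLS1, DFR and LDOX were brighter in leaf on both microarrays, BAN read nearly alike in both tissues, and TT12 changed direction between A and B.

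In the rest of the pathway, root and leaf each had members with the higher signal. UGT78D1, a flavonol rhamnosyltransferase, read 365 in root and 4370 in leaf on A, and 314 and 4247 on B (log2 ratio -3.67, SE 0.19, adjusted p = 5.92e-07). SCPL10, an acyltransferase of anthocyanins, read 82.4 and 784 on A, and 75.6 and 754 on B (log2 ratio -3.28, adjusted p = 8.82e-06). Of the 9 tailoring enzymes 5 were lower and 1 was higher in root, which is 6 called beside the 68.8% of all probes. MYB111 read 32.5 in root and 298.5 in leaf on A, and 92.0 and 322 on B, and was lower in root, with a log2 ratio of -2.50 (SE 0.34, adjusted p = 0.000217), and MYB12, which acts in the same branch, was higher at 1.31 (adjusted p = 7.94e-05). In all, 4 of 15 regulators were higher and 6 lower in root, a share near that of all probes, the higher ones being CPC (2.004), EGL3 (1.98), MYB12 and TTG2 (0.51). CPC and EGL3 also take part in root hair patterning. Of the transport genes TT19 was lower in root, at -1.37.

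Copies of FLS1 had the highest root over leaf ratios of all the pathway genes listed. FLS5 read 17464 in root and 626 in leaf on A, and 16230 and 721 on B (log2 ratio 4.65, SE 0.15, adjusted p = 4.87e-08), and FLS3 read 1312 and 156.2 on A, and 1134 and 155.4 on B (log2 ratio 2.97, SE 0.27, adjusted p = 1.93e-05). Both lie on the side opposite to FLS1. The probe sequences were not used here, so it was not tested whether probes of these related genes share transcripts.

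**Figure D4:**
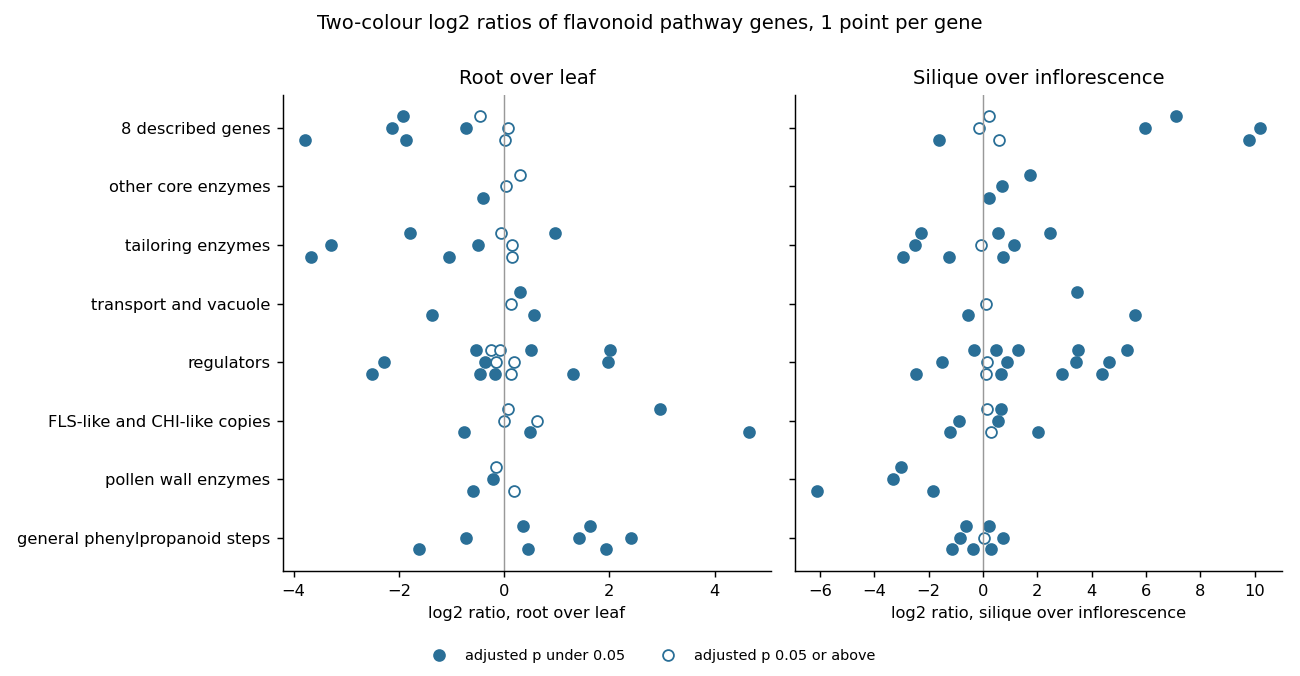
Log2 ratios of the 8 genes and of the listed pathway genes on the two-colour microarrays, root over leaf (left) and silique over inflorescence (right); each point is 1 gene, filled where the adjusted p was under 0.05, and points are spread vertically within a list only to separate them. The highest silique ratios, 10.21 for BAN and 9.80 for DFR, belong to the 8 genes, and the highest root ratio, 4.65, belongs to FLS5.

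The microarrays with a single RNA in both colours gave the level of each gene in callus, root, leaf and inflorescence, as the mean of both colours. The 8 genes followed different orders. CHS, CHI, F3H and FLS1 were highest in inflorescence, then leaf, then root, then callus. DFR and LDOX were highest in leaf. BAN and TT12 were dim everywhere, BAN with its highest signal in root and leaf and TT12 in inflorescence.

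CHS read 22665 and 24482 in inflorescence on microarrays A and B, 1905 and 1599.7 in leaf, 554 and 311 in root, and 13.8 and 87.5 in callus, where both colours of A were not well above background. CHI read 7456 and 7364 in inflorescence, 932 and 546 in leaf, 186.5 and 113.6 in root, and 152.0 and 22.3 in callus. F3H read 17621 and 19159 in inflorescence, 531 and 413 in leaf, 339 and 316 in root, and 90.7 and 15.6 in callus. In these genes the 2 callus microarrays disagreed more than those of any other tissue. FLS1 read 41285 and 52064 in inflorescence, 1951 and 2028 in leaf, 1219 and 973 in root, and 230.3 and 90.3 in callus. No 2 tissues overlapped in CHS, F3H or FLS1, and for CHI only the ranges of callus and root did.

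DFR read 434 and 427 in leaf, 49.2 and 52.9 in root, 46.1 and 29.7 in inflorescence, and 31.6 and 20.3 in callus, whose range overlapped that of inflorescence. LDOX read 224 and 200.3 in leaf, 35.6 and 62.4 in root, 19.0 and 28.6 in inflorescence, and 13.3 and 14.0 in callus, where no spot was well above background. Outside leaf both genes lay near the limit of measurement. BAN read 121.2 and 150.3 in root, 119.5 and 133.0 in leaf, 78.6 and 23.3 in callus, and 21.7 and 33.8 in inflorescence, with overlapping ranges in root and leaf and in callus and inflorescence. Before background subtraction BAN spots were 3.46 to 5.38 times as bright as local background in root. The same values were 2.99 to 3.87 in leaf and 2.70 to 3.17 in inflorescence, so BAN too lay near the limit. TT12 read 76.6 and 76.8 in inflorescence, 44.1 and 57.7 in root, 38.8 and 44.96 in leaf, and 37.9 and 34.9 in callus. The root and leaf ranges of TT12 also overlapped.

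**Figure D5:**
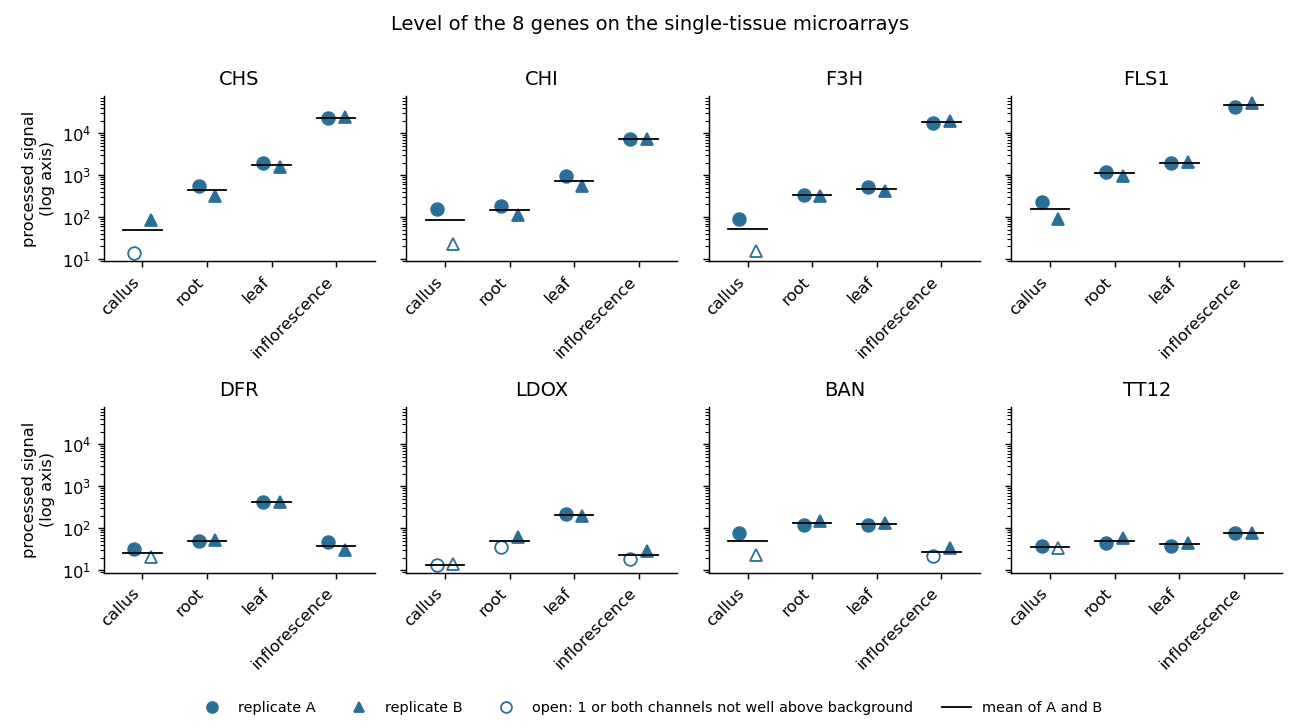
Processed signal (log axis, no unit, mean of both colours) of the 8 genes on the microarrays that held 1 RNA in both colours; circles are microarray A, triangles B, lines the mean of both, and open symbols mark microarrays on which 1 or both colours were not well above background. CHS, CHI, F3H and FLS1 rise in the order callus, root, leaf, inflorescence, whereas DFR and LDOX peak in leaf at 434 or less.

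Inflorescence against leaf separated the early from the late genes. In this comparison 7 of the 8 genes were called, 4 higher (CHS, CHI, F3H and FLS1) and 3 lower (DFR, LDOX and BAN), where 20.5% of 21472 probes were called higher, 16.9% lower and 37.4% in either direction. F3H had the largest increase, 39.2-fold (log2 ratio 5.29, SE 0.72, adjusted p = 0.00241), followed by FLS1 at 23.3-fold (4.54, adjusted p = 0.000594), CHS at 13.5-fold (3.75, adjusted p = 0.0105) and CHI at 10.4-fold (3.38, adjusted p = 0.0186). DFR was 11.6-fold lower (log2 ratio -3.54, SE 0.38, adjusted p = 0.00103) and LDOX 9.10-fold lower (-3.19, adjusted p = 0.00238). BAN was 4.66-fold lower (-2.22, adjusted p = 0.0251). The size of the 3 decreases depended on the background correction, since with normexp and quantile normalization the log2 ratios were -1.99 for DFR, -1.33 for LDOX and -0.77 for BAN, all still called (adjusted p of 0.0249 or lower). The calls of CHS, CHI and BAN were the less secure ones. Each was lost when inflorescence A (adjusted p = 0.0533, 0.0821 and 0.123), inflorescence B (0.0672, 0.0939 and 0.0740) or leaf B (0.0506, 0.0877 and 0.0899) was left out, and that of BAN also without leaf A (0.0693).

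Against root, inflorescence was higher in the same 4 early genes and lower in BAN, with backgrounds of 24.4% higher, 23.4% lower and 47.8% in either direction. CHS was 56.8-fold higher, F3H 56.1-fold, CHI 50.9-fold and FLS1 42.6-fold, with adjusted p between 0.000167 and 0.00189. Without root microarray A these log2 ratios moved from between 5.41 and 5.83 to between 5.57 and 6.24, and all 4 stayed called. BAN was 4.99-fold lower in inflorescence (log2 ratio -2.32, SE 0.59, adjusted p = 0.0168), a call that held without root A (adjusted p = 0.0403) and was lost without root B (0.0669) or inflorescence A (0.0935). With normexp and quantile normalization BAN stood at -0.86 (adjusted p = 0.0128). DFR (-0.46, adjusted p = 0.346), LDOX (-1.02, 0.0909) and TT12 (0.60, 0.181) were not called, nor were they without root A (-0.52, -1.42 and 0.41, adjusted p of 0.0606 or higher).

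Callus had the lowest signal of the early genes. Against inflorescence 5 of the 8 genes were lower in callus and none was higher (background 17.9% lower, 19% higher and 36.9% in either direction). The log2 ratios were -9.40 for CHS, -8.93 for F3H, -8.33 for FLS1 and -6.99 for CHI, with adjusted p of 0.000652 or lower. The order of these 4 cannot be read with confidence, since the callus signals of CHS, CHI and F3H were well above background on 1 of 2 microarrays only. TT12 was 2.11-fold lower (adjusted p = 0.0438), a call that was lost without any 1 of the 4 microarrays (adjusted p between 0.108 and 0.156) and with normexp and quantile normalization (log2 ratio -0.33, adjusted p = 0.0885). With that normalization CHS stood at -7.38, F3H at -7.07, FLS1 at -7.38 and CHI at -5.43. Against leaf 6 of the 8 genes were lower in callus (background 22.5% lower, 28.9% higher and 51.4% in either direction). The log2 ratios were -5.65 for CHS, -3.61 for CHI, -3.64 for F3H, -3.79 for FLS1 and -4.09 for DFR, with adjusted p of 0.01 or lower. The call of CHI was lost without leaf A (adjusted p = 0.0518). No callus spot of LDOX, the last of the 6, was well above background. Set against the lowest signal among probes well above background, its processed leaf signal was 8.02-fold higher. That bound holds for the processed signals only, whose log2 ratio was -3.96 (adjusted p = 0.00048). With normexp and quantile normalization the 6 log2 ratios were smaller, at -3.75 for CHS, -2.16 for CHI, -1.95 for F3H, -3.01 for FLS1, -2.07 for DFR and -1.46 for LDOX, and all were called.

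Against root 4 of the 8 genes were lower in callus, CHS, F3H, FLS1 and LDOX (background 23.6% lower, 26.6% higher and 50.2% in either direction). CHS had a log2 ratio of -3.58 (SE 0.78, adjusted p = 0.00941), which was -3.16 without root A (adjusted p = 0.0371). F3H stood at -3.12 (adjusted p = 0.0115) and FLS1 at -2.92 (adjusted p = 0.00197), and both kept their call without root A (log2 ratios of -3.07 and -2.76, adjusted p = 0.0363 and 0.00858). CHS and F3H were well above background on 1 of the 2 callus microarrays, and over the alternatives their log2 ratios ran from -4.91 to -1.76 and from -4.39 to -1.47, always called, the smallest with normexp and quantile normalization. FLS1 ran from -3.59 to -2.17. LDOX had a log2 ratio of -1.79 (adjusted p = 0.0136). No callus spot of LDOX was well above background, and on root A its green spot was not either. Set against the lowest signal among probes well above background, its processed root signal was 1.78-fold higher. The call was lost without callus A (log2 ratio -1.75) or root B (-1.38) and with the green colour alone (adjusted p = 0.0562). It was also lost with normexp and quantile normalization, where the log2 ratio was -0.38 (adjusted p = 0.0778), a smaller difference than that bound. Without root A the log2 ratio of LDOX was -2.19. CHI was not called at -1.32 (adjusted p = 0.218) and was called without callus A (log2 ratio -2.70, adjusted p = 0.00771), whereas it stood at 0.063 without callus B and at -0.96 without root A (adjusted p = 0.462).

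Root and leaf were also compared on the single-tissue microarrays, where 2 of the 8 genes were lower in root, DFR and LDOX (background 13.5% lower, 14.7% higher and 28.3% in either direction). DFR had a log2 ratio of -3.08 (SE 0.38, adjusted p = 0.00171) and LDOX of -2.17 (SE 0.43, adjusted p = 0.0109), beside -3.78 and -1.86 on the two-colour microarrays. Without root A the values were -3.02 for DFR (adjusted p = 0.00723) and -1.76 for LDOX (0.0492), and with normexp and quantile normalization they were -1.88 (0.000166) and -1.08 (0.00237). CHS (-2.07, adjusted p = 0.0908), CHI (-2.29, 0.0799) and FLS1 (-0.87, 0.166) lay on the same side as on the two-colour microarrays but were not called, with standard errors of 0.78, 0.82 and 0.42 against 0.26, 0.15 and 0.06 there. Without root A they were -2.49, -2.65 and -1.03 and not called (adjusted p of 0.107 or higher), and with normexp and quantile normalization CHS (-1.99, adjusted p = 0.007) and CHI (-1.85, 0.0141) were called. The scans of the leaf and root microarrays were extracted on another day than those of callus and inflorescence, so that for comparisons across these pairs tissue and day cannot be told apart. The silique/inflorescence microarrays were extracted on yet another day, and their scan headers name another software version. The inflorescence dye difference subtracted from their CHS value thus came from scans of another day. Slide series were inferred here from the leading characters of the slide barcodes. By these, both root slides and the slide of leaf B differed from the rest.

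Across the 8 single-tissue microarrays the log2 levels of CHS, CHI, F3H and FLS1 had Pearson correlations of 0.88 to 0.994 with one another, and DFR and LDOX of 0.944. These are descriptions of 8 microarrays that share 4 RNA samples, and both microarrays of a tissue carry the same RNA. The 8 genes were not filtered for background. Levels not well above it entered, as for CHS, CHI and F3H on 1 callus microarray and LDOX on both. TT12 ran only from 34.9 to 76.8 and BAN from 21.7 to 150.3, so their correlations rest on dim signals. DFR and LDOX were not like the early enzymes, with correlations of 0.055 to 0.27 between CHS, CHI, F3H or FLS1 and DFR or LDOX. With the same 4 early genes TT12 correlated at 0.783 to 0.907 and BAN at -0.3 to -0.271. Over the 7 microarrays without root A these correlations were, in the same order, 0.884 to 0.994, 0.945, 0.046 to 0.262, 0.777 to 0.907 and -0.293 to -0.232. Among 18630 probes well above background on all 8 microarrays, the 5 with the profile most like CHS were AT5G20670 (0.986), CPUORF47 (0.985), ALPHA DOX2 (0.984), AT1G68570 (0.982) and XTH16 (0.981). Without root A their correlations with CHS were 0.983 to 0.987, and they took places 2 to 13. Each had its highest mean level in inflorescence, then leaf, root and callus, as CHS did. They were picked by their correlation with CHS on these microarrays, so the shared order is no separate result.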

How the data were processed

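Total RNA was hybridised by the authors to Agilent microarrays with 1 probe of 60 nucleotides per gene, and the scans were read with Agilent's Feature Extraction software. The deposited intensity columns hold the processed signal of each colour, corrected for background and scaled between the colours, and the mean and background signals before correction. The deposited log10 ratio (red over green) was used only as an alternative, because it is limited at both ends. The deposited value table held the same log10 ratios within 1.07e-07. Flags of the scanner software gave background, saturation and outlier status.

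Log2 ratios of the processed signals (two-colour) and the log2 mean of both colours (single tissue) were fitted with limma (version 3.58.1 in R 4.3.3) across 21500 gene probes, with a mean-variance trend and all microarrays of the kind in 1 fit, namely all 12 for the two-colour ratios and 8 for the levels. For the levels the trend followed the mean log2 signal of a probe. For the two-colour ratios it followed the mean log2 ratio of a probe over the 12 microarrays, so that trend did not track brightness. A fit without the trend changed no call of the 8 genes on the two-colour microarrays. Outlier-flagged spots did not enter the fits, and saturated ones did. P-values were adjusted over all probes (Benjamini-Hochberg, threshold 0.05). The number of microarrays, 2 a kind, limits the precision. The scripts were tested on simulated data. A signal not well above background in any spot of a tissue was treated as a bound, computed against the lowest signal among probes well above background. Such a bound holds for the processed signals only and not for other background corrections. Names came from the RefSeq table of TAIR10.1, which held 21191 of the probes' loci. The build behind the array is not given in the sources used here, so no coordinates are printed.

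All 8 genes are described. From the other lists, 70 of 71 genes had a probe, and those with the 3 highest and 3 lowest called ratios in each two-colour comparison are named, with others named after their values were seen. The members and lists were chosen with earlier results of these data known. The Affymetrix value table was not used, because no table pairing its probe sets with genes was at hand, and the sequence tag libraries were not analysed here. Alternatives covered background correction, scaling, filters, dye terms, blocks and each microarray left out. The deposited log ratio, the dye terms of the compared tissues and the crossed letters were added after the data were seen.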

Additional observations from a re-analysis of the deposited data

How the results depend on the processing

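Of 859 recomputed values of single genes, 799 kept direction and side of the threshold, 27 fell below it, 22 rose past it and 11 changed sign; of 226 recomputed counts, 211 stayed within 1.5 times. The cause was not tested where none is given. With normexp and quantile normalization 4 genes were called for root/leaf on single-tissue microarrays in place of 2. A filter for probes well above background everywhere left 6 of the 8 genes in silique/inflorescence (3 called, BAN and DFR having dropped out) and FLS1 alone on the single-tissue microarrays, where it was called in every comparison but root/leaf (1 each, 0 in root/leaf). A fit of the 2 silique/inflorescence microarrays alone called all 8 genes. Leaving out 1 microarray gave 4 to 6 genes and 3573 to 7037 probes called in inflorescence/leaf (7 and 8034 with all). None of the values that changed sign was called with all microarrays: TT12 in callus/leaf (0.15 with normexp and quantile), TT12 in root/leaf two-colour (-0.12 and -0.16 with dye terms, -0.54 without A, 0.67 without B), BAN in root/leaf two-colour (-0.019 centred on the median, -0.0014 with slide series as block, -0.036 without B, 0.056 without A), CHI in callus/root (-2.70 to 0.063 with 1 microarray left out, the latter without callus B), BAN in callus/inflorescence (-0.21 without callus A), BAN in root/leaf single-tissue (-0.057 without root B, 0.25 without root A) and CHS in silique/inflorescence (-0.21 with the dye term of inflorescence). For inflorescence/root, leaving out 1 microarray gave 6223 to 9279 probes called against 10267.

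The letters A and B mark no shared origin between tissues, and the deviations of same-lettered microarrays correlated between -0.197 and 0.174. With the letter as a replicate block TT12 lost its call in callus/inflorescence (-1.08, adjusted p = 0.0578) and CHI gained one in root/leaf single-tissue (-2.29, adjusted p = 0.0485); no other gene's call changed. For callus and inflorescence the letters crossed gave 4 genes and 7886 probes called against 5 and 7913. The Affymetrix comparisons were not run.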

Other observations

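Most of the listed genes for the steps before CHS were higher in root than in leaf, though not all genes of a step moved alike. The general phenylpropanoid steps turn phenylalanine into the precursor that CHS uses. Of their 8 listed genes 6 were higher and 2 lower in root than in leaf. Across all probes 38.3% were called higher, 30.4% lower and 68.8% in either direction. The median log2 ratio of the 8 genes was 0.94, against 0.029 over all probes. 4CL2, a coumarate CoA ligase, read 2116 in root and 410 in leaf on microarray A, and 1649 and 302 on B (log2 ratio 2.41, SE 0.03, adjusted p = 3.94e-09). PAL1 and PAL4, phenylalanine ammonia lyases, stood at 1.94 and 1.62 and the cinnamate hydroxylase C4H at 1.43, while PAL3 (-1.62) and 4CL3 (-0.73) were lower in root, the side on which CHS and CHI lay. In silique against inflorescence 3 of the 8 were higher and 4 lower, with ratios between -1.15 and 0.72.

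The enzymes of pollen wall synthesis related to the CHS and DFR families were all lower in silique than in inflorescence. PKSB, a CHS-like polyketide synthase, read 346 in silique and 21587 in inflorescence on A, and 310.2 and 24013 on B (log2 ratio -6.12, SE 0.19, adjusted p = 2.11e-07). PKSA, its partner, read 1610.1 and 11413 on A, and 987 and 9053 on B (log2 ratio -3.01, adjusted p = 6.12e-08). TKPR1, a DFR-like reductase of the same route, stood at -3.30 on microarray B alone, because its spot on A was flagged as an outlier and dropped (adjusted p = 5.31e-08, for which the spread came wholly from the other microarrays of the fit), and TKPR2 stood at -1.83. CHS and DFR lay elsewhere, with CHS not called and DFR higher in silique.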
